A study of Mus musculus with 15 samples.

Results

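Chemokines and their receptors were followed in perigonadal fat, the fat depot beside the gonads, of C57BL/6 mice. The genes were taken by name from the annotation: every protein-coding gene called Ccl, Cxcl, Ccr, Cxcr, Xcl, Xcr or Ackr with a number, together with Cx3cl1, Cx3cr1, Ccrl2 and Pf4. That rule gave 62 genes of 35794 Entrez IDs, 39 ligands and 23 receptors, and used no measured value. Poly(A) RNA had been sequenced from 3 groups of mice, all 14 weeks old. Weight loss mice had eaten a 60% high-fat diet for 5 weeks from 8 weeks of age and chow for the following 1 week (SWAP, 4 libraries). Obese mice had been put on the 60% high-fat diet at the same age and stayed on it (HFD, 5 libraries). Lean mice had eaten chow throughout (RD, 5 libraries). All mice were of 1 strain, and nothing in the labels names their sex. The design text calls the RNA samples independent, and p-values measure the spread between these samples.

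Chemokines are small secreted proteins that guide white blood cells along a concentration gradient, and they are sorted into CC, CXC, CX3C and XC types by the spacing of their first cysteines. They act through receptors of the G protein-coupled kind, and most receptors bind several ligands. The atypical receptors of the Ackr family bind chemokines without starting G protein signalling and take them up or carry them. In adipose tissue the system is best known for Ccl2 and its receptor Ccr2, which bring blood monocytes into the fat of obese mice.

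The coding sequences below show the stretch around the first cysteines of 8 ligands discussed later, each 36 bases long and read in the 5′ to 3′ direction from GENCODE M21 transcripts on GRCm38. Capitals mark the first cysteine codons. In the CC ligands of the chromosome 11 cluster they lie side by side, in the CXC ligands 1 codon stands between them, and in the CX3C ligand 3 codons do.
Ccl2: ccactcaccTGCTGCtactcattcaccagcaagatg
Ccl7: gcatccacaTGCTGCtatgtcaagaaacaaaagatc
Ccl8: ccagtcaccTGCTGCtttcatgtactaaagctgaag
Ccl12: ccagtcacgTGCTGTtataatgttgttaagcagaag
Ccl11: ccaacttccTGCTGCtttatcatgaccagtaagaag
Cxcl12: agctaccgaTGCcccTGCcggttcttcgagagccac
Cxcl9: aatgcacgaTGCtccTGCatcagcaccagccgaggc
Cx3cl1: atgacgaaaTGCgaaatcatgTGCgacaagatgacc

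The 14 libraries used held 13924770 to 33807887 counts each, and 15208 genes had enough counts to test. Values below are CPM, read counts scaled to the library total after TMM normalisation. Differences are log2 fold changes with their standard errors (±), and adjusted p values come from edgeR's quasi-likelihood test after Benjamini-Hochberg correction over all genes tested. A gene was called at an adjusted p under 0.05. Adipocyte markers were high in all groups, with sums over 8 genes of 22945 to 36311 CPM in weight loss fat, 20097 to 26701 CPM in obese fat and 24297 to 37143 CPM in lean fat. In obese against lean fat 2 of the 8 had positive log2 fold changes, the median was -0.28, and Cfd, the adipsin gene, fell with -1.45 ± 0.26 (adjusted p = 0.00334). Transcripts typical of the epididymis, an organ that adjoins this depot in males, had a high sum in 4 libraries. Their summed level was 8726 CPM in obese replicate 2, 6782 CPM in obese replicate 5, 4072 CPM in obese replicate 4 and 3580 CPM in lean replicate 1, against at most 552 CPM in any other library. The mean log2 CPM of 18 such markers, used below as a covariate, ranked the libraries otherwise. By that measure obese replicate 3, at 2.89, stood above obese replicate 4, at 2.65. The remaining libraries outside the 4 had -2.66 to -1.09. The calls of chemokine genes, and the counts of calls in the other lists, are given below also without the 4 libraries picked by the sum. Macrophage markers differed between obese and lean fat. Of 12 such markers, 7 rose in obese against lean fat, and their summed level ran from 581 to 1331 CPM in weight loss fat, 979 to 1491 CPM in obese fat and 443 to 973 CPM in lean fat. For 6 monocyte markers, of which 2 rose in obese fat, the sums ran from 329 to 794 CPM in weight loss fat, 446 to 871 CPM in obese fat and 120 to 487 CPM in lean fat. In such tissue RNA, more cells of a type and more RNA per cell cannot be told apart.

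Of the 62 genes, 47 passed the filter, 29 ligands and 18 receptors. The other 15 were too low to test. Ccl20, Ccl21b, Ccl21d and Cxcl15 were listed at 0 in all 14 libraries. Some genes that fat is sure to contain, such as Acta2 of smooth muscle, were listed at 0 as well. The remaining 11, Ccl1, Ccl26, Ccl27b, Ccr3, Ccr4, Ccr6, Ccr8, Cxcl5, Cxcl17, Cxcr1 and Xcl1, had at most 26 counts in any library.

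Levels were compared between genes per kilobase of exon. Ccl21a, which guides dendritic cells and naive T cells through CCR7, was highest with 254 CPM per kb over the means of the 3 groups. Pf4, the platelet factor 4 gene also transcribed by tissue macrophages, followed with 103 CPM per kb. Behind them came the eosinophil attractant Ccl11 with 74.2, the macrophage product Ccl6 with 62.8, Ccl19, a second CCR7 ligand, with 50.3, and Ccl24 with 21.2 CPM per kb. Ccl9 at 21.1 and the stromal ligand Cxcl12 at 19.0 CPM per kb completed the top 8. At the low end, Ccr9, a receptor of gut-homing lymphocytes, had 0.0370 CPM per kb. The ligands of neutrophils, Cxcl1, Cxcl2 and Cxcl3, had 0.890, 0.213 and 0.166 CPM per kb. Among receptors, Ackr3 and Ackr1 stood highest, at 13.8 and 9.98 CPM per kb. Some of these levels are uncertain. Near-identical copies elsewhere in the annotation share 71.6% of the 50-base windows of Ccl21a and 52.0% of those of Ccl19, and the sources used here do not say how reads were split among copies. Exons of Ackr1 overlap those of Cadm3, which shares 20.4% of its windows, and exons of Ccr9 overlap those of other annotated transcripts.

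**Figure D1:**
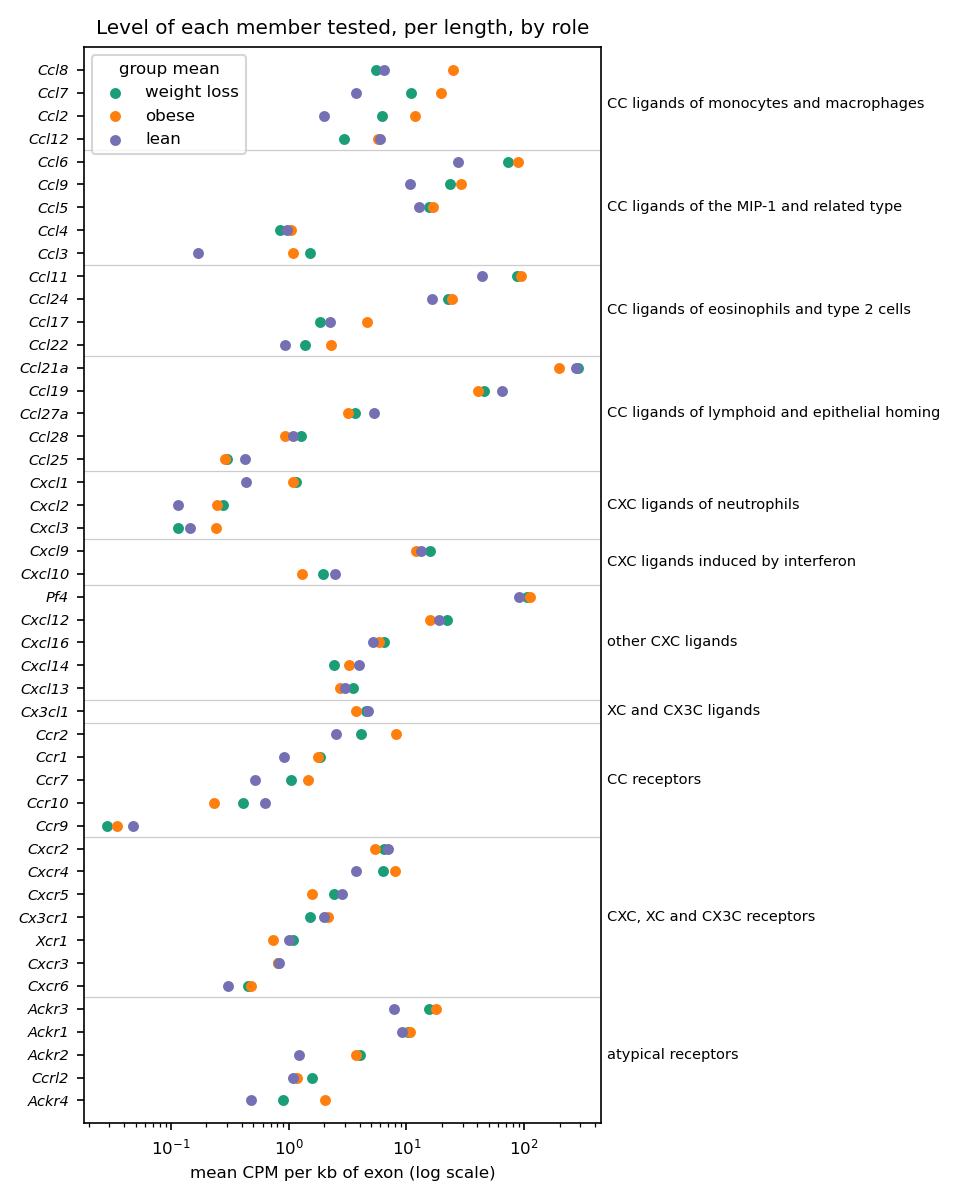
Mean level of 46 of the 47 genes tested, in CPM per kb of exon on a log axis, ordered by role, with 1 point each for the weight loss, obese and lean means. The 3 means of Ccl21a average 254 CPM per kb and those of Ccr9 0.0370, and the widest gaps between obese and lean points are among the CC ligands of monocytes, Ccl3 and Ackr4.

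Between obese and lean fat, 13 of the 47 genes rose and 0 fell by edgeR. That is 27.7% of those tested, while 5.86% of all genes tested rose and 3.85% fell. The 13 were 8 ligands, Ccl2, Ccl7, Ccl8, Ccl6, Ccl9, Ccl3, Ccl11 and Ccl22, and 5 receptors, Ccr2, Cxcr4, Ackr2, Ackr3 and Ackr4. All 8 raised ligands are of the CC type. Neither Cx3cl1 nor any of the 10 CXC ligands tested passed. Without the adjustment, 17 genes were higher and 6 lower at p under 0.05, where 13.2% and 11.5% of all genes were. DESeq2 called the same 13 genes and Ccr7 higher, where it called 8.24% of all genes higher. It called 4 lower, Ccl19, Ccl27a, Cxcl10 and Cxcr5, where it called 6.66% of all genes lower. Limma-voom called 0 lower, and with sample quality weights it called 2, Ccl19 and Ccl27a, where it called 5.33% of all genes lower. The median log2 fold change of the 47 was 0.29, against -0.02 for all genes tested. Every obese library lay above every lean library for 7 of the 47 genes, a separation seen in 6.04% of all genes. The 7 were Ccl2, Ccl7, Ccl8, Ccl3, Ccr2, Ackr3 and Ackr4, all among the 13.

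**Figure D2:**
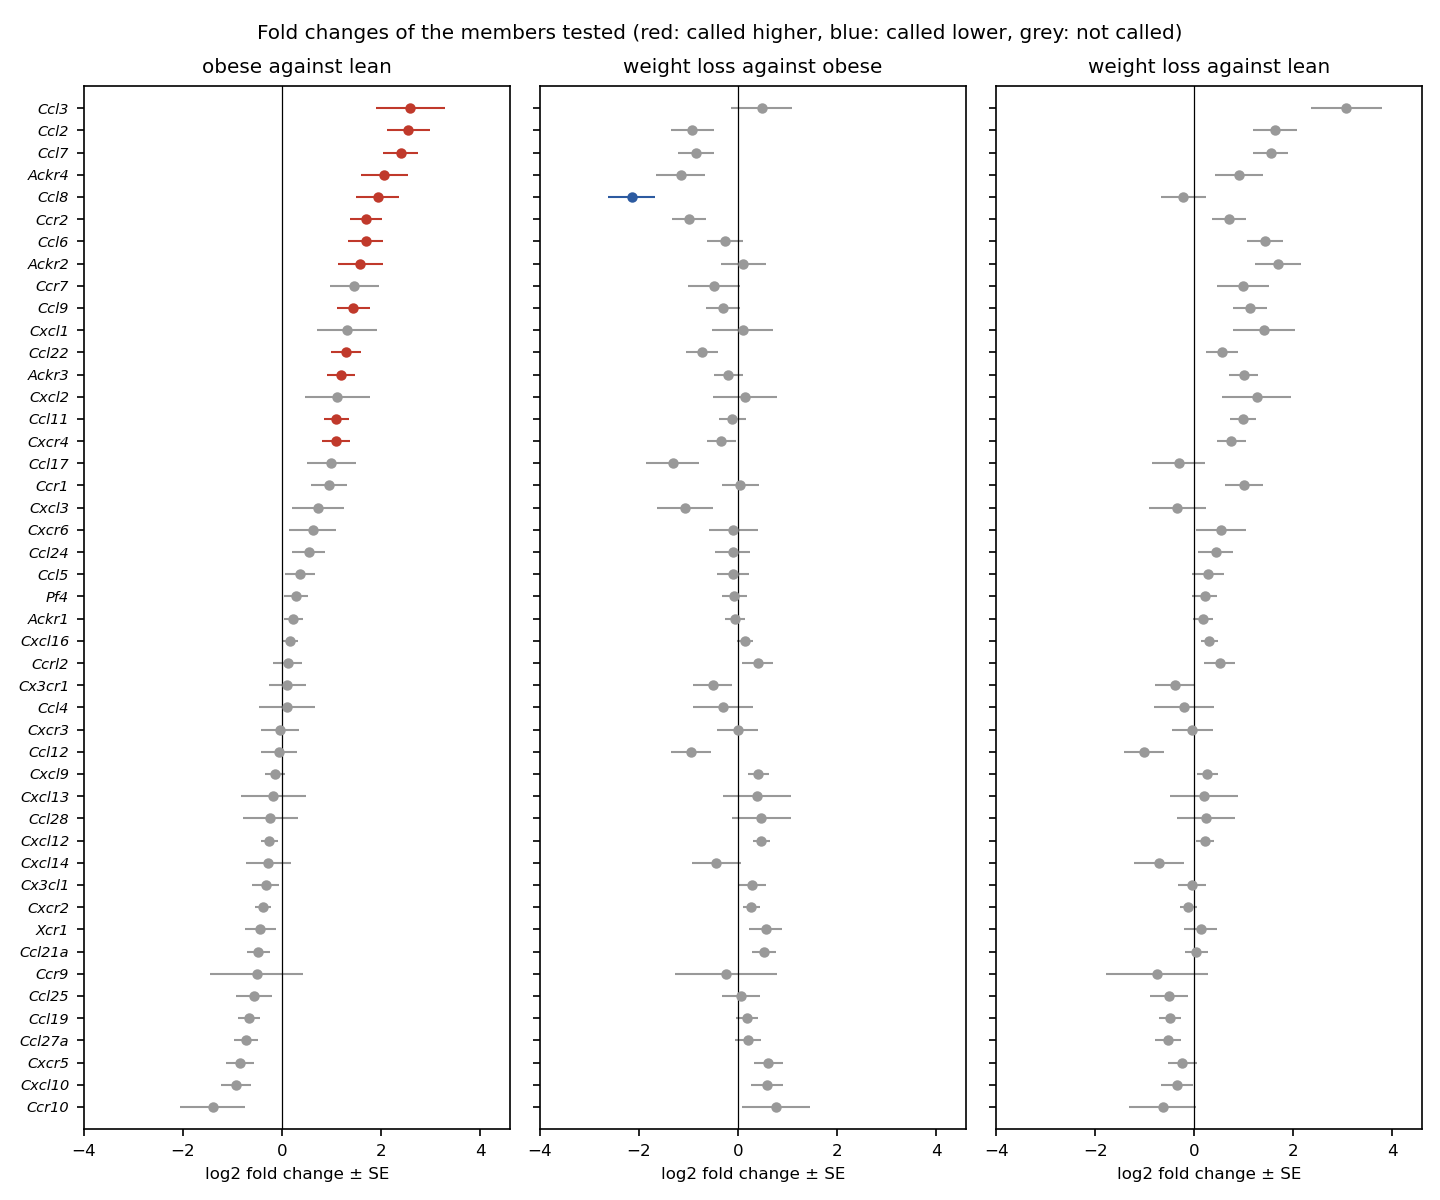
Log2 fold change ± SE (edgeR) of 46 of the 47 genes tested, in obese against lean, weight loss against obese and weight loss against lean fat, ordered by the first. Red points were called higher, the blue point lower and grey points were not called: 13 are red in the first panel, Ccl8 is blue in the second, and none is coloured in the third.

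Among the ligands that attract monocytes, 3 of the 4 tested rose in obese against lean fat, Ccl2, Ccl7 and Ccl8, and Ccl12 was not called. Their median log2 fold change was 2.16, against -0.02 over all genes tested. Ccl2, the main monocyte attractant (chromosome 11, chr11:82035577-82037452 on mm10), stood at 8.30, 4.32, 13.2 and 2.46 CPM in weight loss fat, 13.9, 15.5, 11.7, 15.9 and 10.1 CPM in obese fat, and 2.50, 1.92, 3.57, 0.737 and 2.62 CPM in lean fat. The lowest obese library lay above the highest lean library, while the weight loss libraries spread over both ranges. Ccl2 was 5.86-fold higher in obese than in lean fat, a log2 fold change of 2.55 ± 0.44 with an adjusted p of 0.00265. Ccl7, which acts on CCR2 as well and lies next to Ccl2, had 11.2, 5.64, 13.0 and 4.97 CPM in weight loss fat, 16.6, 21.8, 13.5, 15.9 and 11.0 CPM in obese fat, and 4.41, 2.13, 4.52, 1.81 and 1.92 CPM in lean fat. Again no obese library reached down to the lean ones, and weight loss replicates 1 and 3 lay among the obese values. Its log2 fold change in obese against lean fat was 2.40 ± 0.35, or 5.27-fold (adjusted p = 0.000962), the smallest adjusted p of the 47 genes.

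Ccl8, an attractant of monocytes and, in mouse skin, of type 2 T cells through CCR8, stood at 1.58, 3.20, 2.30 and 4.27 CPM in weight loss fat, 15.6, 9.11, 9.98, 19.9 and 8.50 CPM in obese fat, and 4.50, 1.56, 6.46, 1.27 and 2.55 CPM in lean fat. Every obese library exceeded every weight loss and every lean library. The rise in obese against lean fat was 1.93 ± 0.44 on the log2 scale, or 3.82-fold (adjusted p = 0.0137). Ccl12, the mouse CCR2 ligand named MCP-5, had 0.565, 1.12, 1.85 and 2.78 CPM in weight loss fat, 4.12, 2.76, 2.77, 3.98 and 1.73 CPM in obese fat, and 2.81, 2.62, 3.89, 3.42 and 3.26 CPM in lean fat. Its obese and lean ranges overlapped (adjusted p = 0.940). The coding sequences of Ccl8 and Ccl12 are 65.4% identical, and the genes are neighbours on chromosome 11. Their promoters are shown because these 2 genes differ in their values. Each line holds the 250 bases before the start of transcription, from the RefSeq promoter table on GRCm38.p6, with a TATAAA match in capitals. The Ccl8 line is chr11:82114935-82115184 and the Ccl12 line chr11:82101595-82101844, both on the plus strand.
Ccl8: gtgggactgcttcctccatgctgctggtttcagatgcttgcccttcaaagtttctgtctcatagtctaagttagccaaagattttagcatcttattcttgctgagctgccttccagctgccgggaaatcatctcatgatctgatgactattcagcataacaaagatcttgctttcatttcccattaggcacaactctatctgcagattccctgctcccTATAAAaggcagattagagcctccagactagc
Ccl12: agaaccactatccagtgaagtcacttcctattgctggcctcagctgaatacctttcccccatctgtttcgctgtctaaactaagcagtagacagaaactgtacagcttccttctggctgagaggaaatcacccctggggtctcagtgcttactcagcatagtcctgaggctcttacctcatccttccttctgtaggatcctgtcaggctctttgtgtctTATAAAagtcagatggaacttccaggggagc

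Ccr2, the receptor for these ligands on monocytes, rose as well. It stood at 39.9, 19.6, 37.2 and 15.1 CPM in weight loss fat, 79.3, 60.8, 53.7, 55.6 and 28.5 CPM in obese fat, and 18.8, 13.9, 27.7, 13.5 and 11.7 CPM in lean fat. The lowest obese value, in replicate 5, was barely above the highest lean value, in replicate 3, and the other 4 obese libraries were far above both. Ccr2 was 3.24-fold higher in obese than in lean fat, 1.69 ± 0.32 on the log2 scale (adjusted p = 0.00516). In other genes 1.91% of its 50-base windows recur. Of 6 monocyte markers, 2 rose beside these genes, where 5.86% of all genes rose. They were Ms4a4c, with 1.87 ± 0.48 (adjusted p = 0.0257), and Fn1, with 1.26 ± 0.35 (adjusted p = 0.0335) on the log2 scale. Ly6c2, the marker of classical monocytes, was not called, at 3.84 ± 1.23 CPM in weight loss fat, 3.19 ± 0.537 CPM in obese fat, and 2.46 ± 0.637 CPM in lean fat (SD, n = 4, 5 and 5). The monocyte marker sums given above thus came mostly from the other markers of that list. The part of monocyte number in these rises was not tested.

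**Figure D3:**
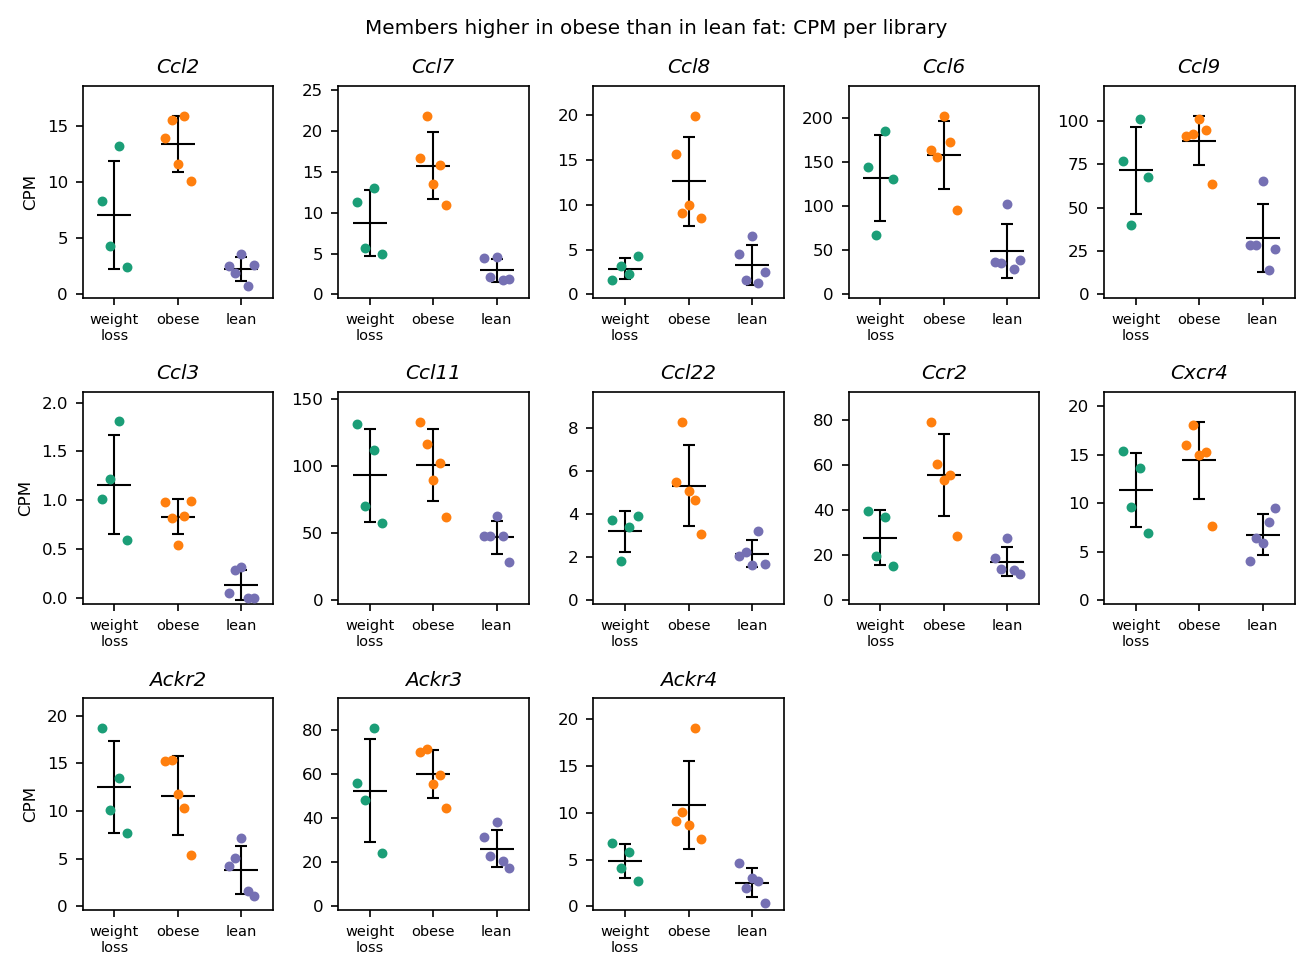
CPM of the 13 genes that rose in obese against lean fat, 1 point per library (4 weight loss, 5 obese, 5 lean), with bars for the mean ± SD. The obese points of Ccl2, Ccl7, Ccl8, Ccl3, Ccr2, Ackr3 and Ackr4 all lie above the lean points, and for Ccl8 and Ackr4 they also lie above the weight loss points.

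The macrophage inflammatory protein group holds ligands of CCR1, made largely by macrophages. Of 5 tested, Ccl6, Ccl9 and Ccl3 rose in obese against lean fat and Ccl4 and Ccl5 were not called. Ccl6, a CCR1 ligand found in rodents, reached 144, 66.8, 185 and 131 CPM in weight loss fat, 164, 155, 202, 172 and 95.9 CPM in obese fat, and 36.4, 36.1, 103, 28.8 and 39.5 CPM in lean fat. Lean replicate 3, at 103 CPM, stood apart from the other lean libraries and inside the obese range. The log2 fold change in obese against lean fat was 1.69 ± 0.35, or 3.23-fold (adjusted p = 0.00816). Ccl9, another CCR1 ligand of mice, had 76.9, 40.2, 101 and 68.0 CPM in weight loss fat, 91.3, 92.5, 101, 95.0 and 64.0 CPM in obese fat, and 28.7, 28.4, 65.6, 14.0 and 26.2 CPM in lean fat. Lean replicate 3 was again the highest lean library and obese replicate 5 the lowest obese one, and these 2 overlapped. Ccl9 rose by 1.44 ± 0.33, or 2.72-fold (adjusted p = 0.0145). Lean replicate 3 also had the highest macrophage marker sum of its group, 973 CPM, and obese replicate 5 the lowest of its group, 979 CPM. The part of macrophage content in these differences was not tested.

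Ccl3, known as MIP-1α, was scarce. It had 1.02, 1.22, 1.81 and 0.588 CPM in weight loss fat, 0.980, 0.812, 0.542, 0.838 and 0.988 CPM in obese fat, and 0.0446, 0.284, 0.316, 0 and 0 CPM in lean fat. The weight loss and obese libraries all exceeded the lean ones, of which 2 had no count. The fitted log2 fold change in obese against lean fat was 2.60 ± 0.70 (adjusted p = 0.0302), and it rests on few counts. It was no longer called without any 1 of obese replicates 1, 2, 4 and 5 or lean replicates 1, 4 and 5, with adjusted p values over all left-out libraries of 0.0162 to 0.0580. Ccl4, known as MIP-1β, averaged 0.554 ± 0.402 CPM in weight loss fat, 0.687 ± 0.295 CPM in obese fat, and 0.639 ± 0.391 CPM in lean fat (SD, n = 4, 5 and 5), without a call (adjusted p = 0.936 in obese against lean fat). Ccl5, the T cell product RANTES, averaged 15.0 ± 6.93 CPM in weight loss fat, 16.0 ± 3.61 CPM in obese fat, and 12.4 ± 4.23 CPM in lean fat, a log2 fold change of 0.37 ± 0.30 in obese against lean fat (adjusted p = 0.501). Their receptor Ccr1 averaged 5.22 ± 1.81 CPM in weight loss fat, 5.06 ± 1.80 CPM in obese fat, and 2.58 ± 1.10 CPM in lean fat and differed by 0.96 ± 0.36 between obese and lean fat (adjusted p = 0.112), with a call when obese replicate 5 was left out (adjusted p = 0.0466).

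Ccl6 and Ccl9 stand beside each other on chromosome 11, share 65.1% of their coding bases and rose together, so their promoters are printed for comparison. The Ccl6 line covers chr11:83593088-83593337 and the Ccl9 line chr11:83578637-83578886, both on the minus strand of GRCm38.p6 (RefSeq) and the 250 bases before the start. Capitals mark matches to the motifs searched on both strands: the kappaB consensus of NF-kappaB, TGANTCA of AP-1, TTNNGNAA of C/EBP, the interferon-stimulated response element and TATAAA.
Ccl6: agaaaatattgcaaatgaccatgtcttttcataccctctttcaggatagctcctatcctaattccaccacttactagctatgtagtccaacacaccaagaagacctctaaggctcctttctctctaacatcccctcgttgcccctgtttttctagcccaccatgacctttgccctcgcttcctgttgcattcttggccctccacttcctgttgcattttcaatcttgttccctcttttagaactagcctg
Ccl9: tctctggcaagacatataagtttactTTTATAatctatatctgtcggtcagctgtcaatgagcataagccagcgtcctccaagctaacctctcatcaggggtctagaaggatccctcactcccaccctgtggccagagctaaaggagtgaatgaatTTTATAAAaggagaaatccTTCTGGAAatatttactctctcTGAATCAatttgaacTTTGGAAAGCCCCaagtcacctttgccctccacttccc
The Ccl9 stretch held 7 matches, some of which overlap, and no match to these letters was found in the Ccl6 stretch. In windows of 300 bases, reaching 50 bases past the start, the kappaB consensus was present in 10 of the 48 genes of the family with a promoter in the table, 20.8%, against 5.55% of 27025 genes. Of the 10 raised genes with a promoter there, 2 held it, Ackr2 and Ccl9. For TATAAA the shares were 25.0% of the family and 14.2% of all genes, and 5 of the 10 raised genes held it, Ackr3, Ackr4, Ccl8, Ccl9 and Cxcr4. TGANTCA was in 12.5% of the family and 7.93% of all genes, and the interferon-stimulated response element in 6.25% and 3.49%. TTNNGNAA was in 24 of the 48 family promoters and in 40.7% of all genes' promoters, and 7 of the 10 raised genes held it. Ccl2, Ccl7 and Ccl11 were not among the promoters used.

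Ligands of eosinophils and type 2 cells were raised in part. Ccl11, eotaxin, which calls eosinophils through CCR3, had 132, 70.6, 112 and 57.9 CPM in weight loss fat, 133, 116, 89.6, 103 and 62.4 CPM in obese fat, and 47.8, 47.9, 62.9, 47.9 and 28.4 CPM in lean fat. Obese replicate 5 and lean replicate 3 had nearly the same value, and the other obese libraries were higher than every lean one. Ccl11 rose 2.14-fold in obese against lean fat, 1.10 ± 0.26 on the log2 scale (adjusted p = 0.0162). Ccl22, a CCR4 ligand of dendritic cells and macrophages, had 3.73, 1.83, 3.39 and 3.90 CPM in weight loss fat, 5.49, 8.30, 5.10, 4.66 and 3.10 CPM in obese fat, and 2.05, 2.27, 1.63, 3.22 and 1.70 CPM in lean fat. Obese replicate 5 overlapped lean replicate 4. The log2 fold change of Ccl22 in obese against lean fat was 1.30 ± 0.31, or 2.46-fold (adjusted p = 0.0177), and without obese replicate 2 the adjusted p was 0.0554. Ccl24, or eotaxin-2, averaged 29.2 ± 6.88 CPM in weight loss fat, 31.4 ± 8.56 CPM in obese fat, and 21.5 ± 13.5 CPM in lean fat (SD, n = 4, 5 and 5) and was not called, with 0.54 ± 0.33 and an adjusted p of 0.355. Lean replicate 3 held its highest value, 43.8 CPM, and without that library the adjusted p was 0.0334. Ccl17, a second CCR4 ligand, was chosen for mention after its values were seen. It had 1.19, 1.12, 0.723 and 0.748 CPM in weight loss fat, 2.01, 2.76, 1.46, 3.67 and 1.87 CPM in obese fat, and 1.34, 1.28, 2.49, 0.268 and 0.426 CPM in lean fat and differed by 1.00 ± 0.49 between obese and lean fat (adjusted p = 0.225). Their receptor genes Ccr3 and Ccr4 were too low to test. Of 3 eosinophil markers tested, Ear2 rose, by 1.79 ± 0.34 (adjusted p = 0.00496), while Siglecf stayed at or below 0.588 CPM in every library and could not be tested. Il5ra, the interleukin 5 receptor gene, had -1.07 ± 0.37 without a call (adjusted p = 0.0820), and Prg2 had 0.26 ± 0.55 (adjusted p = 0.816). Summed over the 7 eosinophil markers in the table, levels ran from 20.7 to 48.8 CPM in weight loss fat, 28.4 to 48.7 CPM in obese fat and 8.18 to 20.0 CPM in lean fat.

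The 5 tested ligands of lymphoid and epithelial homing were all lower in the obese than in the lean group on the fitted scale, and none was called. Ccl19 averaged 39.8 ± 9.33 CPM in weight loss fat, 35.2 ± 5.75 CPM in obese fat, and 55.9 ± 15.7 CPM in lean fat (SD, n = 4, 5 and 5). Lean replicate 3, at 29.4 CPM, was the exception among lean libraries, of which the other 4 lay above every obese library. The log2 fold change was -0.67 ± 0.21 (adjusted p = 0.0639), and it was called when weight loss replicate 1 or lean replicate 3 was left out. Ccl21a averaged 248 ± 47.1 CPM in weight loss fat, 173 ± 50.7 CPM in obese fat, and 241 ± 69.8 CPM in lean fat, with -0.48 ± 0.23 for obese against lean fat (adjusted p = 0.211). Ccl27a, a skin-homing ligand named here after its values were seen, shares 45.0% of its 50-base windows with other genes. It had 6.49, 8.69, 6.06 and 13.4 CPM in weight loss fat, 8.04, 6.88, 8.41, 5.45 and 9.07 CPM in obese fat, and 9.50, 11.0, 11.4, 12.0 and 18.8 CPM in lean fat. Its obese libraries all lay below the lean ones, a separation in that direction seen in 4.31% of all genes, but the log2 fold change of -0.73 ± 0.25 had an adjusted p of 0.0795. It was called without weight loss replicate 4 (adjusted p = 0.0407). Ccr7, the receptor of Ccl19 and Ccl21a on dendritic cells and naive lymphocytes, averaged 2.07 ± 1.32 CPM in weight loss fat, 2.89 ± 1.26 CPM in obese fat, and 1.03 ± 0.639 CPM in lean fat. Its difference between obese and lean fat, 1.46 ± 0.50, did not pass in the edgeR fit of all libraries (adjusted p = 0.0777). Ccr7 was called by edgeR without lean replicate 3 (adjusted p = 0.0310) or with the replicate number as a block (adjusted p = 0.0406). DESeq2 called it too (adjusted p = 0.0370). Of markers of T cells, B cells, dendritic cells and natural killer cells edgeR called 0 between obese and lean fat, with 1, 0, 3 and 0 at an unadjusted p under 0.05 and 0, 0, 1 and 0 called by DESeq2.

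CXC ligands did not pass in any comparison. The neutrophil attractants were scarce: Cxcl1 averaged 2.16 ± 1.47 CPM in weight loss fat, 2.03 ± 1.04 CPM in obese fat, and 0.818 ± 0.494 CPM in lean fat (SD, n = 4, 5 and 5), with a log2 value of 1.32 ± 0.60 for obese against lean fat (adjusted p = 0.192). Cxcl2 averaged 0.570 ± 0.406 CPM in weight loss fat, 0.511 ± 0.343 CPM in obese fat, and 0.238 ± 0.124 CPM in lean fat, and Cxcl5 had at most 6 counts in a library. Cxcr2, their receptor on neutrophils, averaged 19.6 ± 3.11 CPM in weight loss fat, 16.3 ± 1.57 CPM in obese fat, and 21.2 ± 5.11 CPM in lean fat (-0.38 ± 0.16 in obese against lean fat, adjusted p = 0.166). Beside them S100a8, from the neutrophil marker list, rose in obese against lean fat, with 0.374 to 0.813 CPM in weight loss fat, 3.19 to 5.75 CPM in obese fat, and 0 to 1.07 CPM in lean fat, while Csf3r, the receptor for granulocyte growth factor, averaged 7.64 ± 1.27 CPM in weight loss fat, 7.25 ± 1.59 CPM in obese fat, and 5.89 ± 1.28 CPM in lean fat without a call. Summed over 5 tested and 3 untested neutrophil markers, the level ran from 8.39 to 12.2 CPM in weight loss fat, 11.5 to 16.4 CPM in obese fat and 5.18 to 8.51 CPM in lean fat, with the defining marker Ly6g listed at 0 throughout. Neither interferon-induced ligand was called. Cxcl9 averaged 48.2 ± 9.53 CPM in weight loss fat, 36.4 ± 5.51 CPM in obese fat, and 40.1 ± 13.8 CPM in lean fat. Cxcl10 had 4.46, 2.44, 6.64 and 4.01 CPM in weight loss fat, 4.41, 2.81, 1.90, 2.67 and 2.79 CPM in obese fat, and 4.73, 6.95, 5.24, 3.75 and 7.23 CPM in lean fat. Only obese replicate 1 reached into the lean range of Cxcl10, whose log2 fold change in obese against lean fat was -0.93 ± 0.30 (adjusted p = 0.0647, and 0.0445 without obese replicate 1). Cxcr3, the receptor of both on activated T cells, averaged 1.39 ± 0.454 CPM in weight loss fat, 1.40 ± 0.224 CPM in obese fat, and 1.44 ± 0.695 CPM in lean fat.

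Cxcl12, the stromal ligand that retains white blood cells in tissues, had 244, 155, 194 and 131 CPM in weight loss fat, 148, 145, 123, 125 and 111 CPM in obese fat, and 112, 140.5, 181, 172 and 171 CPM in lean fat. The 3 ranges overlapped, and obese against lean fat gave -0.25 ± 0.17 (adjusted p = 0.403). Its receptor Cxcr4 was called. Cxcr4 had 15.4, 9.66, 13.6 and 6.94 CPM in weight loss fat, 16.0, 18.1, 15.0, 15.3 and 7.62 CPM in obese fat, and 4.01, 6.39, 5.97, 8.04 and 9.50 CPM in lean fat. Obese replicate 5 lay among the lean libraries and the other 4 obese libraries lay above them. Cxcr4 rose 2.13-fold, 1.09 ± 0.28 on the log2 scale (adjusted p = 0.0271), a call that was lost without any 1 of obese replicates 1 to 4 or lean replicates 1 and 2 (adjusted p over all left-out libraries, 0.0134 to 0.0698).

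The other pairs showed no call. Cxcl13, the B cell attractant, averaged 4.02 ± 3.86 CPM in weight loss fat, 3.12 ± 1.49 CPM in obese fat, and 3.49 ± 2.94 CPM in lean fat (SD, n = 4, 5 and 5). Its receptor Cxcr5 had 7.40, 9.15, 8.41 and 7.32 CPM in weight loss fat, 6.03, 6.01, 4.01, 6.44 and 3.92 CPM in obese fat, and 6.02, 5.46, 10.7, 8.85 and 16.5 CPM in lean fat, with -0.85 ± 0.28 for obese against lean fat (adjusted p = 0.0712) and a call without lean replicate 1 or 2. Cxcl16, a membrane-bound ligand and scavenger receptor, averaged 19.4 ± 2.17 CPM in weight loss fat, 17.6 ± 2.31 CPM in obese fat, and 15.7 ± 3.55 CPM in lean fat, and Cxcr6, its receptor, 0.869 ± 0.520 CPM in weight loss fat, 0.926 ± 0.404 CPM in obese fat, and 0.591 ± 0.228 CPM in lean fat. Pf4 averaged 76.2 ± 16.6 CPM in weight loss fat, 80.3 ± 12.8 CPM in obese fat, and 65.6 ± 30.1 CPM in lean fat, with 0.29 ± 0.24 and an adjusted p of 0.502. Its highest value, 119 CPM, was that of lean replicate 3, and without that library Pf4 was called (adjusted p = 0.0248). Cx3cl1, the membrane-anchored fractalkine, averaged 17.9 ± 5.08 CPM in weight loss fat, 14.7 ± 1.91 CPM in obese fat, and 18.4 ± 8.47 CPM in lean fat. Cx3cr1, its receptor on patrolling monocytes and tissue macrophages, averaged 6.81 ± 0.791 CPM in weight loss fat, 9.69 ± 4.16 CPM in obese fat, and 8.97 ± 4.06 CPM in lean fat, and Xcr1, a receptor of cross-presenting dendritic cells, 4.86 ± 0.980 CPM in weight loss fat, 3.29 ± 1.19 CPM in obese fat, and 4.45 ± 1.31 CPM in lean fat. Xcl1, its ligand, was too low to test. Another 6 tested genes, Ccl25, Ccl28, Cxcl3, Cxcl14, Ccr9 and Ccr10, had adjusted p values of 0.198 to 0.848 between obese and lean fat.

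**Figure D4:**
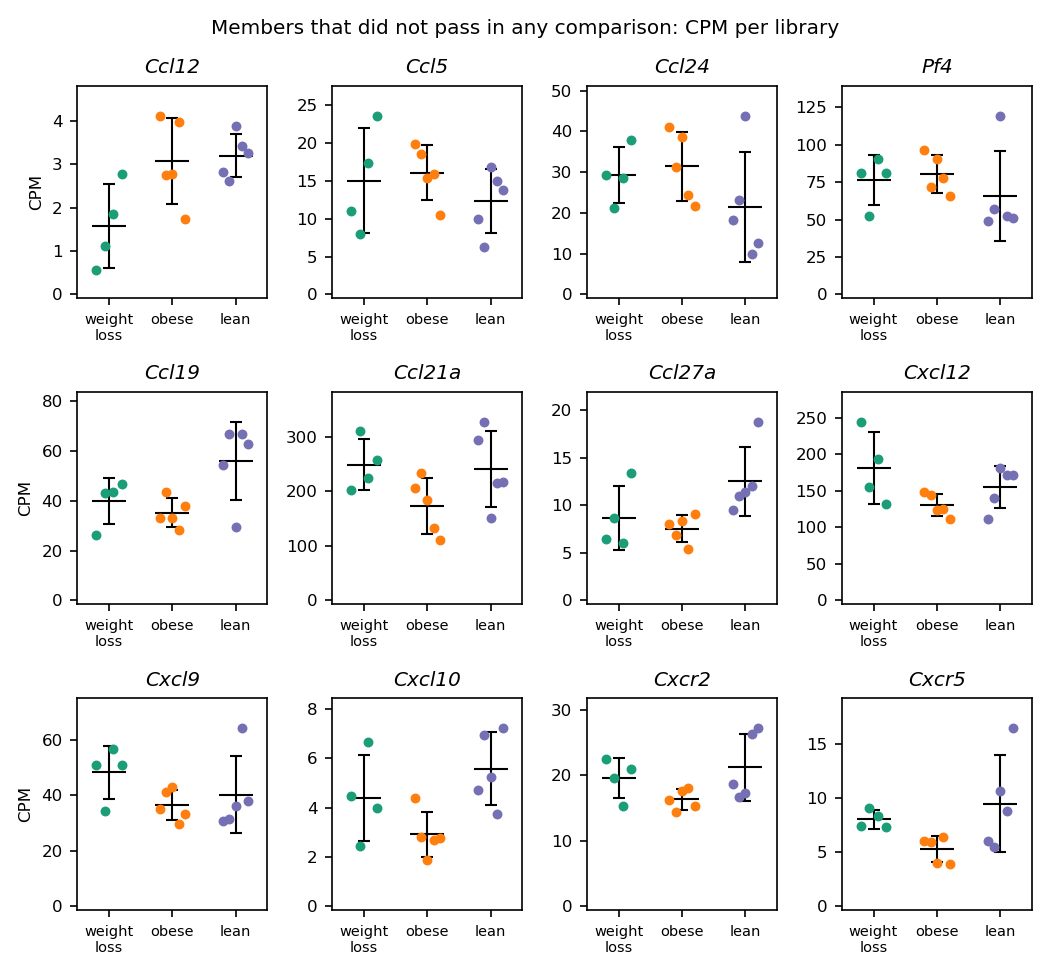
CPM per library of 12 genes without a call in any comparison, with bars for the mean ± SD, in weight loss (4), obese (5) and lean (5) fat. Obese points of Ccl19, Ccl27a, Cxcl10 and Cxcr5 lie low against most lean points, with adjusted p values of 0.0639 to 0.0795 in obese against lean fat, and lean replicate 3 is the high point of Ccl24 and Pf4.

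Of the 5 atypical receptors, Ackr2, Ackr3 and Ackr4 rose in obese against lean fat and Ackr1 and Ccrl2 were not called. Ackr2, which takes up inflammatory CC ligands such as Ccl2 for degradation, had 18.7, 10.2, 13.5 and 7.69 CPM in weight loss fat, 15.3, 15.3, 11.8, 10.3 and 5.36 CPM in obese fat, and 4.19, 5.04, 7.23, 1.61 and 1.13 CPM in lean fat. Obese replicate 5 lay within the lean range. The log2 fold change in obese against lean fat was 1.59 ± 0.45, or 3.00-fold (adjusted p = 0.0375), and the call was lost without any 1 of obese replicates 1 to 4 or lean replicates 1, 2, 4 and 5 (0.0168 to 0.0856 over all left-out libraries). When edgeR was fitted to the obese and lean libraries alone, Ackr2 was not called either (adjusted p = 0.0521). Ackr3, the scavenging receptor for Cxcl12, had 56.2, 48.1, 81.1 and 24.4 CPM in weight loss fat, 69.9, 71.5, 55.4, 59.5 and 44.7 CPM in obese fat, and 31.4, 23.1, 38.2, 20.8 and 17.7 CPM in lean fat. All obese libraries exceeded all lean ones, and weight loss replicate 4 lay among the lean values. Ackr3 rose by 1.20 ± 0.28, or 2.29-fold (adjusted p = 0.0153).

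Ackr4, which scavenges Ccl19 and Ccl21 in tissues and lymph vessels, had 6.77, 4.07, 5.83 and 2.67 CPM in weight loss fat, 9.07, 10.1, 8.73, 19.1 and 7.20 CPM in obese fat, and 4.59, 1.99, 3.07, 2.75 and 0.355 CPM in lean fat. Obese replicate 4 stood well above the other obese libraries, and the lowest obese library exceeded every weight loss and every lean one. The log2 fold change in obese against lean fat was 2.07 ± 0.48, or 4.20-fold (adjusted p = 0.0152). Exons of Ackr4 overlap those of Acad11 on the other strand and the sources used here do not say whether the counting used strand, so reads within that overlap cannot be told apart. The same holds for Cxcr5 with Bcl9l, Cxcl10 with Art3 and Cxcl16 with Zmynd15, over 110, 133 and 552 bases. In all, exons of 10 genes of the family overlap those of other genes. Ackr1, which carries chemokines across venule walls and binds them on red blood cells, averaged 14.4 ± 2.22 CPM in weight loss fat, 14.9 ± 3.93 CPM in obese fat, and 12.8 ± 2.48 CPM in lean fat (SD, n = 4, 5 and 5), with 0.23 ± 0.19 and an adjusted p of 0.514. Its level is uncertain, as its exons overlap those of Cadm3. Ccrl2, which presents the attractant chemerin, averaged 4.07 ± 1.63 CPM in weight loss fat, 3.08 ± 0.338 CPM in obese fat, and 2.84 ± 0.893 CPM in lean fat (adjusted p = 0.851). Of 7 endothelial markers edgeR called 0 between obese and lean fat (0 at an unadjusted p under 0.05, 0 by DESeq2), and of 6 lymphatic endothelial markers 1 was called, Pdpn. The fibroblast markers Ly6a, Pi16 and Cd34 rose, 3 of 8.

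Many chemokine genes lie in clusters. On chromosome 11, Ccl2, Ccl7, Ccl11, Ccl12, Ccl8 and Ccl1 occupy bases 82035577 to 82179812 (mm10), and 4 of the 5 tested there rose. A second group on the same chromosome, Ccl5, Ccl9, Ccl6, Ccl3 and Ccl4 at 83525778 to 83664683, had 3 raised of 5. In the receptor group of chromosome 9, at 123767211 to 124127183, 1 of 6 tested rose, Ccr2. The CXC ligand group of chromosome 5, at 90759298 to 90905938, had 0 called of 4, and of Ccl22, Cx3cl1 and Ccl17 on chromosome 8 only Ccl22 rose. Neighbours were defined as genes of the family no more than 200000 bases apart. These are the calls given above, sorted by position. Of the whole family tested 27.7% rose, and of all genes 5.86%, and a link between position and change was not tested.

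The comparison of weight loss with obese fat asks what differed after 1 week of chow. Ccl8 was lower, and no other gene of the family was called in either direction. That is 1 of 47, where 0.881% of all genes fell and 0.736% rose. Ccl8 averaged 2.84 ± 1.16 CPM in weight loss fat and 12.6 ± 4.96 CPM in obese fat (SD, n = 4 and 5), a log2 fold change of -2.15 ± 0.48 or a ratio of 0.226 (adjusted p = 0.0370). DESeq2, which called 2.79% of all genes lower, and limma-voom called Ccl8 too, and neither called another gene of the family. The call was near the threshold: without any 1 of weight loss replicates 1, 2 and 3 or obese replicates 1, 3 and 4 it was lost, with adjusted p values over all left-out libraries of 0.0217 to 0.116. Against lean fat Ccl8 differed by -0.22 ± 0.46 in weight loss fat (adjusted p = 0.892), and these ranges overlapped. S100a8, of the neutrophil marker list, was lower in weight loss than in obese fat as well, with -3.06 ± 0.61 (adjusted p = 0.0191), and of the macrophage and monocyte markers edgeR called 0, with 0 at an unadjusted p under 0.05 and 0 by DESeq2. Of 9 markers of recruited or lipid-associated macrophages edgeR called 0, with 1 higher and 1 lower at an unadjusted p under 0.05 and 2 called by DESeq2, Gpnmb higher and Fabp5 lower (edgeR adjusted p = 0.104 and 0.145). The sums of these 9, which include Lpl, an adipocyte gene too, overlapped, at 12823 to 17153 CPM in weight loss fat, 14598 to 17934 CPM in obese fat and 13405 to 19928 CPM in lean fat, and in obese against lean fat 4 of them rose, Lgals3, Itgax, Fabp5 and Spp1.

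Before adjustment, 7 genes of the family were lower and 2 higher at p under 0.05 in weight loss against obese fat, as were 7.13% and 7.16% of all genes. Ackr4, Ccl17 and Ccl8 were lower in every weight loss library than in every obese library, as were 3.27% of all genes, and Cxcr5 was higher in every one, as were 3.38%. For Ackr4 the difference was -1.16 ± 0.50 (adjusted p = 0.301), for Ccl17 -1.31 ± 0.53 (adjusted p = 0.270) and for Cxcr5 0.61 ± 0.30 (adjusted p = 0.370). Ccr2 differed by -0.99 ± 0.34 (adjusted p = 0.181), Ccl2 by -0.92 ± 0.44 (adjusted p = 0.365) and Ccl7 by -0.85 ± 0.36 (adjusted p = 0.289). With sample quality weights in limma-voom, Ccl7 and Ccr2 were called lower beside Ccl8, where 1.87% of all genes were. The other genes raised in obesity had smaller differences or were not lower, and none was called. Ccl6 differed by -0.26 ± 0.36, Ccl9 by -0.31 ± 0.34, Ccl11 by -0.11 ± 0.27, Ackr3 by -0.20 ± 0.29 and Cxcr4 by -0.34 ± 0.30, with adjusted p values of 0.688 to 0.905. Ccl22 differed by -0.73 ± 0.32 (adjusted p = 0.323), and Ccl3 by 0.47 ± 0.62 (adjusted p = 0.810), which was on the higher side in weight loss fat. Ackr2 averaged 12.5 ± 4.78 CPM in weight loss fat and 11.6 ± 4.12 CPM in obese fat (SD, n = 4 and 5), also without a call (adjusted p = 0.953). A p above the threshold does not show that these genes stayed at the obese level.

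In weight loss against lean fat edgeR called 0 of the 47 genes, where 0.0329% of all genes rose and 0.0% fell, and limma-voom called 0 of the family too. DESeq2 called 7 higher, Ccl2, Ccl3, Ccl6, Ccl7, Ccl11, Ackr2 and Ackr3, where it called 1.3% of all genes higher. Before adjustment 11 were higher and 2 lower at p under 0.05, against 7.55% and 3.89% of all genes. Every weight loss library lay above every lean one for Ccl3, Ccl7 and Ackr2, as in 1.58% of all genes, and none of the 47 lay wholly below, as 0.704% of all genes did. The log2 differences were 3.07 ± 0.72 for Ccl3 (adjusted p = 0.133), 1.54 ± 0.36 for Ccl7 (adjusted p = 0.133), 1.69 ± 0.47 for Ackr2 (adjusted p = 0.183), 1.63 ± 0.45 for Ccl2 (adjusted p = 0.178) and 1.43 ± 0.36 for Ccl6 (adjusted p = 0.146). Ccr2 differed by 0.70 ± 0.34 (adjusted p = 0.445). Weight loss replicate 4 was the lowest of its group for Ccl2, Ccl3, Ccl7, Ccl11, Ccr2, Cxcr4, Ackr2, Ackr3 and Ackr4. Without it 3 genes were called higher than in lean fat, Ccl2, Ccl7 and Ackr3, where 0.746% of all genes were, and without lean replicate 3 Ccl6 was called. All 3 comparisons share libraries, so they are not independent of one another.

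Genes around the chemokine system were read from 5 lists. These share some genes with the marker lists, among them Lgals3 and Spp1, so the calls in both are not separate counts. Of 33 genes that signal downstream of chemokine receptors, 6 rose and 1 fell in obese against lean fat, 18.2% and 3.03%, where 5.86% and 3.85% of all genes did. The exchange factor Vav1 rose by 0.85 ± 0.21 (8.29 to 16.7 CPM in weight loss fat, 9.52 to 17.5 CPM in obese fat, and 6.90 to 8.95 CPM in lean fat, adjusted p = 0.0204) and the G protein subunit Gng2 by 0.76 ± 0.20 (adjusted p = 0.0258). Rgs2, which shortens G protein signals, fell, with a log2 fold change of -1.10 ± 0.30 (10.0 to 39.6 CPM in weight loss fat, 11.6 to 18.0 CPM in obese fat, and 20.6 to 44.1 CPM in lean fat, adjusted p = 0.0326). The median log2 fold change of this list was 0.43. Of 22 inducers of chemokine genes, 2 rose, Stat6 by 0.47 ± 0.13 (adjusted p = 0.0304) and Fos by 1.54 ± 0.42 (adjusted p = 0.0320), 9.09% of the list, with a median of 0.03. Tnf averaged 0.960 ± 0.554 CPM in weight loss fat, 1.22 ± 0.410 CPM in obese fat, and 1.14 ± 0.460 CPM in lean fat without a call. Of 23 other attractants and their receptors 8 rose, 34.8%, with a median of 0.70. Lgals3, the gene of the macrophage lectin galectin-3, rose by 1.27 ± 0.20 (118 to 267 CPM in weight loss fat, 196 to 256 CPM in obese fat, and 82.1 to 108 CPM in lean fat, adjusted p = 0.00143). Cd74, whose product presents antigen and binds the attractant MIF, rose by 0.70 ± 0.18 (adjusted p = 0.0277), and the acute-phase gene Saa3 by 1.95 ± 0.55 (adjusted p = 0.0385). Of 18 adhesion genes of leukocyte entry 4 rose, 22.2%, among them Itgb1 by 0.62 ± 0.14, Selplg by 1.12 ± 0.28 and Itgam by 1.29 ± 0.37 (adjusted p = 0.0160, 0.0237 and 0.0387), with a median of 0.20. Of 20 enzymes and proteoglycans that act on chemokines, the macrophage elastase Mmp12 rose by 2.79 ± 0.64 (4.33 to 96.5 CPM in weight loss fat, 11.7 to 32.9 CPM in obese fat, and 1.27 to 3.84 CPM in lean fat, adjusted p = 0.0150) and the gelatinase Mmp9 fell, with -1.02 ± 0.28 (adjusted p = 0.0333). These are 5.00% in each direction, near the shares of all genes, and the list median was 0.26. The median of all genes tested was -0.02. Between weight loss and lean fat edgeR called 0 genes of the 5 lists, while 10, 3, 7, 7 and 7 genes, list by list in the order given, were higher at an unadjusted p under 0.05, 1 of the last list was lower, and DESeq2 called 0, 1, 5, 0 and 1. Of all genes, 7.55% were higher at an unadjusted p under 0.05 in that comparison, and DESeq2 called 1.3% higher. Between weight loss and obese fat edgeR again called 0, with 1, 2, 2, 2 and 0 genes higher and 0, 1, 2, 0 and 0 lower at an unadjusted p under 0.05, where 7.16% and 7.13% of all genes were, and DESeq2 called 0, 0, 1, 0 and 0. The macrophage markers C1qa and Cd68 rose beside these genes in obese against lean fat, by 1.14 ± 0.24 (adjusted p = 0.00924) and 1.41 ± 0.32 (adjusted p = 0.0136), and the part of macrophage content in any of these values was not tested.

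The rise of the 13 genes was recomputed for the libraries rich in epididymal transcripts. Without the 4 libraries with the highest sum, 2 obese and 4 lean libraries remained. Obese replicate 3, whose mean log2 marker level was above that of obese replicate 4, was among those kept. All 13 log2 fold changes stayed positive, between 1.06 for Cxcr4 and 2.52 for Ccl7 and Ccl2, and 1 gene was called, Ccl7 (adjusted p = 0.0346), where 0.603% of all genes rose. The 13 had been picked as called from a fit that includes these libraries, so their kept sign is not a separate test. Ccr2 had 1.99 ± 0.42 with an adjusted p of 0.0573. With the epididymal level as a covariate and all 14 libraries, 10 of the 47 genes tested were called higher, where 3.02% of all genes rose. All 10 were among the 13. In that fit 2, 0, 1, 2 and 0 genes of the 5 lists named above were called higher and 0 lower, and 7 of 12 macrophage, 0 of 6 monocyte, 2 of 5 neutrophil, 1 of 3 eosinophil and 3 of 8 fibroblast markers were called higher. Without the 4 libraries edgeR called 0 genes of these lists. There 15, 4, 11, 6 and 5 genes of the 5 lists and 9 macrophage, 3 monocyte, 3 neutrophil, 1 eosinophil and 6 fibroblast markers were higher at an unadjusted p under 0.05, where 8.46% of all genes were, and other tools were not run on these libraries. The genes of these lists that had been called with all libraries kept their sign in both settings. As the same libraries had picked them, that is not a separate test either. Of the 13, the 3 not called with the covariate were Ackr2 (adjusted p = 0.0666), Ccl22 (0.0637) and Ccl3 (0.0615). Ccl8 in weight loss against obese fat had -2.17 ± 0.59 without the 4 libraries (adjusted p = 0.371) and -2.26 ± 0.56 with the covariate (adjusted p = 0.208), against -2.15 ± 0.48 in the fit of all libraries.

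**Figure D5:**
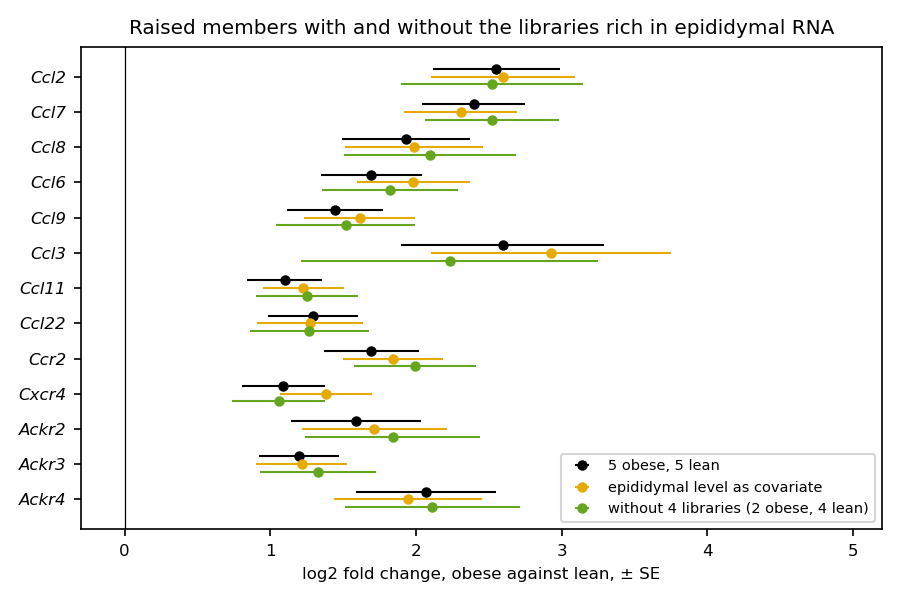
Log2 fold change ± SE in obese against lean fat of the 13 raised genes, from all 5 obese and 5 lean libraries, then with epididymal markers as a covariate, and then leaving out the 4 libraries where those transcripts have the highest sum. All points lie above 1, and the standard errors are widest where 2 obese and 4 lean libraries remain.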

How the data were processed

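Poly(A) RNA-seq of perigonadal fat was used. The authors deposited a table of expected counts per Entrez gene ID, and 34.8% of its values were not whole. The build was mm10, per the submitters' processing notes. The sources used here do not name the aligner, the counter or the strand setting. Values were rounded to whole numbers. Symbols came from RefSeq for 32919 of 35794 IDs and from GENCODE M21 for 23. One of 5 weight loss libraries, replicate 5, held 230 counts and was left out because its total was under 1000000. The 14 others held 13924770 to 33807887 counts.

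Genes were filtered with filterByExpr and scaled by TMM. A model of 3 groups was fitted with edgeR 4.0.16 (quasi-likelihood test, Benjamini-Hochberg adjustment, threshold 0.05) in R 4.3.3. The standard error is the log2 fold change divided by the square root of F. Levels per kb used the union of GENCODE exons. DESeq2 1.42.0, limma-voom (limma 3.58.1), other scalings and filters, a replicate block, an epididymal covariate and leaving out libraries were the alternatives, 26 per comparison.

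Genes named are those called in any comparison, the 8 most abundant, and fixed ligand and receptor pairs with the atypical receptors. In other lists, up to 3 called genes with the smallest p are named, and Il5ra, Prg2, Gpnmb, Fabp5 and Spp1 were added after their values were seen. The members and lists were chosen with earlier results of these data known. Of the family, Ccl21c was not analysed here, and 1 tested gene is counted but not reported by name.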

Additional observations from a re-analysis of the deposited data

Results flagged for a closer look

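In 8 of 117 groups of libraries checked, 1 library stood far from the others of its group by Dixon's criterion, which chance alone meets in about 1 of 20 groups. Ackr4 had 19.1 CPM in obese replicate 4, against 7.20 to 10.1 CPM in the other obese libraries. Lean replicate 3 stood high for 3 genes. It had 103 CPM of Ccl6, against 28.8 to 39.5 CPM in the other lean libraries. It had 65.6 CPM of Ccl9, against 14.0 to 28.7 CPM. It had 119 CPM of Pf4, against 48.9 to 57.0 CPM. Obese replicate 5 stood low for 2 genes, with 64.0 CPM of Ccl9, against 91.3 to 101 CPM in the other obese libraries, and 1.20 CPM of Xcr1, against 3.56 to 4.12 CPM. Cxcl16 had 22.6 CPM in weight loss replicate 3, against 17.9 to 18.6 CPM in the other weight loss libraries. Cxcl9 had 64.3 CPM in lean replicate 4, against 30.9 to 38.1 CPM in the other lean libraries.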

How the results depend on the processing

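Between obese and lean fat, 13 genes were called higher. Without the 4 libraries richest in epididymal RNA there were 1, at an adjusted p under 0.01 there were 4 (1.98% of all genes rose), and leaving out single libraries gave 9 (without obese replicate 2, where 3.6% of all genes rose) to 16 (without lean replicate 3, 6.54%). The count of lower genes, 0, was 4 with DESeq2, 2 with limma-voom and sample quality weights, and 0 to 1 when single libraries were left out. In weight loss against obese fat the count of lower genes, 1, was 3 with quality weights, 0 with the epididymal covariate, 0 without the 4 libraries, 0 at an adjusted p under 0.01 and 0 to 1 without single libraries. In weight loss against lean fat the count of higher genes, 0, was 7 with DESeq2 and 0 to 3 without single libraries. With the replicate number as a block, 14 genes were higher in obese than in lean fat, where 6.75% of all genes were, among them Ccr7 (adjusted p = 0.0406) and without Cxcr4 (0.0722), and in weight loss against obese fat Ccr2 (0.0356) was the 1 lower gene, not Ccl8 (0.0833). Over 13 pairs of libraries with the same number the deviations correlated between -0.55 and 0.40, 4 of them over 0.1, and in 2 pairs a library correlated best with its own number, so the numbers were not taken to pair the mice. Leaving out libraries turned some uncalled differences. Ccl8 in weight loss against lean fat ranged from -0.50 to 0.19 (without lean replicate 3). Ccl11 in weight loss against obese fat ranged from -0.33 to 0.0490, positive without weight loss replicate 4 (0.0490) or obese replicate 1 (0.00721). Ackr3 in weight loss against obese fat ranged from -0.49 to 0.0275 (without weight loss replicate 4). The cause of these changes was not tested. Genes under 1 CPM, such as Ccl3 and Ccl4, are limited by depth.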
